A study of Mus musculus with 6 samples.

Results

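A set of 10 genes of the bone morphogenetic protein (BMP) pathway was described across 6 arrays of the mouse stromal line OP9. They were the ligands Bmp4, Bmp2 and Bmp7, the secreted antagonists Nog and Grem1, the receptors Bmpr1a and Bmpr2, and the target genes Id1, Id2 and Id3. Every probe set whose only gene symbol in the platform annotation was the symbol of one of these 10 genes, or a synonym of it, was taken. This gave 100 of the 318760 probe sets with a single symbol, and the 10 genes were among 22103 with at least 1 such probe set. A probe set is a group of probes that reads a stretch of a transcript.

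OP9 is a mouse bone marrow stromal line on which lymphoid cells are grown. The study asked what changes in these cells when Hedgehog signalling is lowered. The 3 Smo shRNA arrays held RNA of a stable line carrying a lentiviral pLKO.1-Puro hairpin against Smoothened (Smo), the membrane protein that Hedgehog signalling requires. The 3 control shRNA arrays held RNA of a stable line carrying a scrambled hairpin (NT) in the same vector, and both lines were kept below confluency. Each group was therefore 1 transduced line sampled 3 times, and nothing in the labels says that the 3 RNA samples came from separate cultures, so the p-values cover a spread that may be technical. Line and hairpin cannot be told apart.

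BMP ligands are secreted dimers that bring type I and type II receptor kinases together. The type I receptor then phosphorylates Smad1, Smad5 and Smad9, which enter the nucleus with Smad4 and raise target genes, the Id genes among them. Id proteins lack a DNA-binding region and hold E proteins in inactive dimers. In marrow stroma the pathway is best known for steering mesenchymal cells between bone, cartilage and fat fates, and antagonists such as noggin and gremlin bind the ligands outside the cell.

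Of the 10 genes, 3 (Bmp4, Bmpr1a and Id3) fell in Smo shRNA cells, by 1.31-fold, 1.17-fold and 1.32-fold, and Id2 rose by 1.11-fold. Bmp2, Bmp7, Nog, Grem1, Bmpr2 and Id1 did not pass the test at the gene level. Of the 6 Id1 probe sets, 2 nevertheless passed as lower, one of them by 3.33-fold and the other with a level in Smo shRNA cells below the median of all probe sets. The test was limma on gene values, with Benjamini-Hochberg adjustment over 16791 genes and a threshold of 0.05. Over all those genes 38.8% passed, 21.4% as higher and 17.4% as lower, so 4 of 10 is close to the share of all genes. The median log2 difference of the 10 genes was -0.08 and that of all genes 0.01, and the median sizes were 0.10 and 0.11. Every difference below is a log2 value, the Smo shRNA level less the control level, and folds from hybridization understate changes of dim probe sets.

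Across genes, which are not independent replicates, 2 arrays of 1 line had a correlation of 0.996 to 0.998, and 2 arrays of different lines one of 0.978 to 0.981. Smo itself was at 11.37 ± 0.06 (SD, n = 3) in Smo shRNA cells and 12.25 ± 0.03 (SD, n = 3) in control cells, 1.83-fold lower (limma adjusted p = 9.21e-10). Over all tested genes 17.4% fell and 21.4% rose, the shares to set beside each marker count here. The marker lists were chosen with earlier results of these data known. Of 10 stromal markers 7 fell, among them Cxcl12 and Col1a1, and 8 had levels above 10. The other 2 were dim, Lepr at 7.35 ± 0.03 and Thy1 at 7.39 ± 0.02 in Smo shRNA cells, against 7.31 ± 0.07 and 7.27 ± 0.11 in control cells (SD, n = 3 each). None of 6 endothelial and none of 6 tested haematopoietic markers passed in either direction. With array weights 1 haematopoietic marker, Cd79a, passed as lower (-0.20, limma adjusted p = 0.0136). The mean levels of the endothelial and haematopoietic lists were 7.56 to 7.93 on Smo shRNA arrays and 7.60 to 7.89 on control arrays. Gene levels leave out probe sets with a mean under 6.61, the median probe set level. Levels above 6.61 therefore follow from that filter and cannot show whether these markers were expressed. The share of probe sets kept ran from 10 of 53 for Ptprc to 8 of 9 for Cd3e. Of 9 tested adipocyte genes, 6 fell and 1 rose, with 0 rising when Smo shRNA replicate 3 or any 1 control array was left out, the list's mean level being 9.55 to 9.60 on Smo shRNA arrays and 10.21 to 10.30 on control arrays. Of 11 tested S-phase genes, 10 rose, at 11.99 to 12.02 on Smo shRNA arrays and 11.47 to 11.54 on control arrays. The part of either list in the results below was not tested. In RNA from a bulk culture, fewer cells of a type and less RNA per cell cannot be told apart.

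The stretches before the start sites of the 4 genes that passed are shown here because they are the regulatory sequence nearest to the genes whose levels differed. They are the 250 bases before the RefSeq start site on GRCm38.p6, read on the strand of the gene, with capitals marking the motifs that were searched. The Bmp4 window is chr14:46390670-46390919 and the Bmpr1a window chr14:34502547-34502796, both on the minus strand. The Id3 window is chr4:136143572-136143821 on the plus strand, and the Id2 window chr12:25096093-25096342 on the minus strand. Of the 10 genes, 6 had an entry in the RefSeq promoter table, the others being Bmp2, Bmp7, Nog and Id1.
Bmp4: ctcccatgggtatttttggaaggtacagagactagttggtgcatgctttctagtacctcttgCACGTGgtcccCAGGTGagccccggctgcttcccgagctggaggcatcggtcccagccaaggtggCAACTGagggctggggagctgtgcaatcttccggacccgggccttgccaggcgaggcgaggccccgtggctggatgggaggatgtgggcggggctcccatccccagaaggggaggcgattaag
Bmpr1a: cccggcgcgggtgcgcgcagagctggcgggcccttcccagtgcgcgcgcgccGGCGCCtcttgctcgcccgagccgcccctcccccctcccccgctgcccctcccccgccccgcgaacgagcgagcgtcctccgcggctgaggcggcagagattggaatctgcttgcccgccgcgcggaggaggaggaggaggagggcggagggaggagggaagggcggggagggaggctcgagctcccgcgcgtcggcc
Id3: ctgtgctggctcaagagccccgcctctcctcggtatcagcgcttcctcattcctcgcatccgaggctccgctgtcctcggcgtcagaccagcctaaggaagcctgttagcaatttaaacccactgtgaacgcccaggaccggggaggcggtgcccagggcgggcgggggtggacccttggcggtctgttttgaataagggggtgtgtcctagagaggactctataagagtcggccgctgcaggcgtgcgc
Id2: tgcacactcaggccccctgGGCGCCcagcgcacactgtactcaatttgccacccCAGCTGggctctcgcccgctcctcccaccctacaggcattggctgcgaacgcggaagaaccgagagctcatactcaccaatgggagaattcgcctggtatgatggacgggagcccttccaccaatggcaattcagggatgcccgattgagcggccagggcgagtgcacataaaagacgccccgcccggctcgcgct
On both strands the search covered the Gli consensus GACCACCCA, the GC-rich Smad element GGCGCC, the palindromic Smad element GTCTAGAC and the E-box CANNTG. The capitals in Bmp4 are 3 E-boxes, which begin 188, 177 and 123 bases before the start. Those in Bmpr1a are 1 GC-rich Smad element, 198 bases before the start. Those in Id2 are 1 GC-rich Smad element and 1 E-box, 231 and 196 bases before the start. The Id3 window held none of the 4 motifs. In all 32851 promoter windows of this length, 66.2% held an E-box, 9.59% the GC-rich element, 0.225% the Gli consensus and 0.167% the palindromic element. The Bmpr2 and Grem1 windows, whose genes did not pass, also held the GC-rich element. The 6 windows of these genes were 62.8% to 78.8% G and C, against a median of 52.4% over all windows. The shares above do not allow for that composition, so no enrichment can be read from them. A match is a description of letters and not a bound site.

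Bmp4, which encodes a BMP ligand that acts on mesenchymal progenitors, was lower in Smo shRNA cells. Its gene level read 12.07, 11.96 and 12.13 on the Smo shRNA arrays, against 12.44, 12.44 and 12.45 on the control arrays. The groups did not overlap, and the 3 control arrays were nearly equal. The difference was -0.39 (SE 0.04, 95% interval -0.47 to -0.30, limma adjusted p = 3.13e-06), and 13.7% of all tested genes differed by more. No overlap between the 3 and 3 arrays was seen for 4 of the 10 genes, Bmp4, Bmpr1a, Id2 and Id3, and for 47.8% of all tested genes.

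The 6 Bmp4 probe sets were not lowered alike. Numbered by mean level from high to low, the first 4 fell by 0.28, 0.42, 0.88 and 0.75. The third, with the largest fall, read 12.25, 12.21 and 12.31 on Smo shRNA arrays, against 13.16, 13.09 and 13.16 on control arrays (SE 0.05, limma adjusted p = 7.84e-07 over all probe sets), which is 1.84-fold lower. The fifth probe set read 10.20, 9.79 and 10.25 on Smo shRNA arrays, against 9.99, 10.01 and 10.31 on control arrays. Its groups overlapped and its difference was -0.02. The sixth was dim, at 6.73 ± 0.12 in Smo shRNA cells and 6.61 ± 0.24 in control cells (SD, n = 3 each). The gene value therefore lies between probe sets that fell by up to 1.84-fold and probe sets whose differences did not pass. RefSeq also lists a pseudogene, Bmp4-ps, and whether any of these probe sets read it was not tested.

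Bmp2, a close relative of Bmp4 that drives bone formation, did not pass. Its gene level read 7.22, 7.23 and 7.11 on Smo shRNA arrays, against 7.39, 7.32 and 7.12 on control arrays, and the groups overlapped. The difference was -0.09 (95% interval -0.28 to 0.10, adjusted p = 0.519). Of 7 probe sets, 6 had means between 5.76 and 7.33, close to the median of all probe sets. The remaining one read 11.87, 11.85 and 11.75 on Smo shRNA arrays, against 12.01, 11.97 and 11.84 on control arrays, a difference of -0.12 (adjusted p = 0.477). In 2 of the dim probe sets the groups were separate, in opposite directions. One read 6.58, 6.83 and 7.01 on Smo shRNA arrays, against 7.39, 7.41 and 7.46 on control arrays (-0.61, adjusted p = 0.0959). The other had a difference of 0.36 (adjusted p = 0.354), and neither passed over all probe sets.

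Bmp7, a ligand best known from kidney and brown fat development, was dim in both lines. It read 7.09, 6.82 and 6.76 on Smo shRNA arrays, against 6.97, 7.04 and 6.68 on control arrays. The groups overlapped and the difference was -0.0083 (95% interval -0.25 to 0.24, adjusted p = 0.969). None of its 11 probe sets passed, with differences from -0.33 to 0.23. A change within that interval remains compatible with these values.

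Nog encodes noggin, which binds BMP ligands and keeps them from their receptors. Its level read 8.74, 8.58 and 8.35 on Smo shRNA arrays, against 8.53, 8.70 and 8.66 on control arrays, so the Smo shRNA arrays held both the highest and the lowest value. The difference was -0.07 (95% interval -0.27 to 0.13, adjusted p = 0.627), and none of 6 probe sets passed. Leaving out Smo shRNA replicate 3 turned the difference to 0.06.

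Grem1 encodes gremlin 1, a cystine-knot antagonist of BMP2, BMP4 and BMP7. Its level read 8.29, 8.13 and 8.17 on Smo shRNA arrays, against 8.17, 8.27 and 8.15 on control arrays. The means were 8.20 ± 0.08 and 8.20 ± 0.06 (SD, n = 3 each), and the 95% interval of the difference was -0.15 to 0.15 (adjusted p = 0.999). Of its 13 probe sets, 6 were below the median of all probe sets and entered no gene value. One of those 6 read 6.14, 6.22 and 6.09 on Smo shRNA arrays, against 5.44, 5.54 and 5.50 on control arrays, without passing over all probe sets (0.65, adjusted p = 0.142). In 2 others of the 6 the groups were separate in the opposite direction, at -0.33 and -0.27, and did not pass either.

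**Figure D1:**
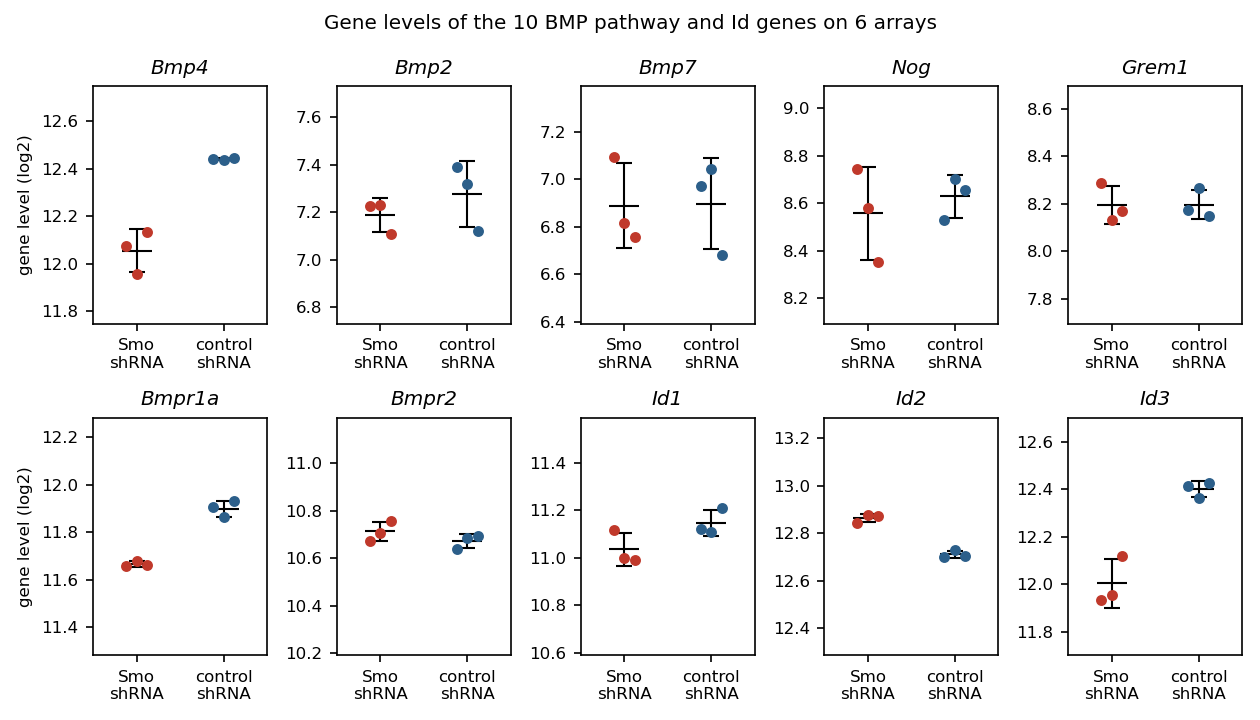
Gene level (log2 scale, each panel spanning 1 unit) of the 10 genes on the 3 Smo shRNA arrays (red, left) and the 3 control shRNA arrays (blue, right), with the mean and SD in black. Bmp4, Bmpr1a and Id3 lie lower and Id2 higher on all 3 Smo shRNA arrays, and the other 6 genes overlap.

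Bmpr1a, the type I receptor also called ALK3, fell by a small amount. Its level read 11.66, 11.68 and 11.66 on Smo shRNA arrays, against 11.90, 11.86 and 11.93 on control arrays. The groups were separate, with a difference of -0.23 (SE 0.03, 95% interval -0.31 to -0.16, limma adjusted p = 7.6e-05), and 26.8% of all genes differed by more. Of 18 probe sets 17 had negative differences, and 5 passed on their own, from -0.36 to -0.24. The only positive difference, 0.04, came from the dimmest probe set.

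Bmpr2, the type II receptor for BMP ligands, did not pass. It read 10.67, 10.71 and 10.76 on Smo shRNA arrays, against 10.64, 10.69 and 10.69 on control arrays, and the groups overlapped. The difference was 0.04 (95% interval -0.06 to 0.14, adjusted p = 0.560). Of 25 probe sets 22 had positive differences, none of which passed on its own, with a median of 0.08. These probe sets read 1 transcript on the same arrays and are not independent.

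**Figure D2:**
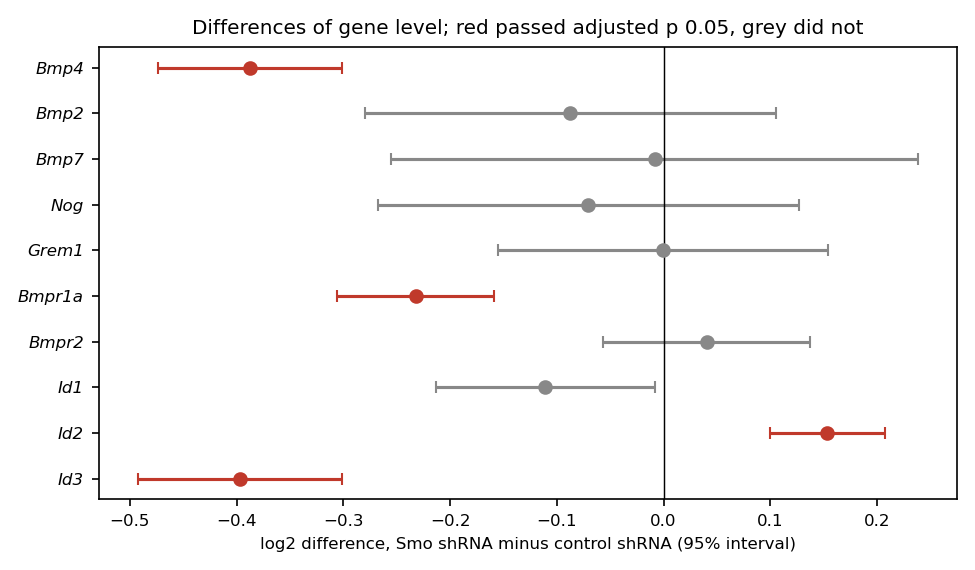
Log2 difference of gene level, Smo shRNA minus control shRNA, with its 95% interval from limma for each of the 10 genes. Red marks the 4 genes that passed adjusted p 0.05, of which Bmp4 and Id3 differ by -0.39 and -0.40 and Id2 by 0.15.

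The 3 Id genes, which are direct targets of the BMP Smads, did not move together. Id3 read 11.94, 11.96 and 12.12 on Smo shRNA arrays, against 12.41, 12.36 and 12.43 on control arrays. All Smo shRNA arrays were lower, replicate 3 the least so, and the difference was -0.40 (SE 0.04, 95% interval -0.49 to -0.30, limma adjusted p = 6.6e-06). Its 4 probe sets were all lower, by 0.22 to 0.51 on the log2 scale, and 3 of them passed on their own. The one that missed the threshold read 11.67, 11.62 and 12.25 on Smo shRNA arrays, against 12.21, 12.11 and 12.19 on control arrays, with Smo shRNA replicate 3 above every control array.

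Id2 rose slightly. It read 12.84, 12.88 and 12.87 on Smo shRNA arrays, against 12.70, 12.73 and 12.70 on control arrays. The groups were separate by little, and the spread within a line was 0.02 (SD, n = 3) in both. The difference was 0.15 (SE 0.03, 95% interval 0.10 to 0.21, limma adjusted p = 0.000196). All 4 probe sets had positive differences, from 0.13 to 0.32, and none passed on its own, the smallest adjusted p being 0.0654. The Id2 and Id3 intervals lie on opposite sides of 0.

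Id1 did not pass as a gene. Its level read 11.11, 11.00 and 10.99 on Smo shRNA arrays, against 11.12, 11.11 and 11.21 on control arrays, a difference of -0.11 (SE 0.05, 95% interval -0.21 to -0.0085, adjusted p = 0.0851). The interval is not adjusted for the number of genes. The median polish that joins probe sets gives little weight to those that depart from the rest, and 2 of the 6 departed strongly. With the mean of probe sets in place of the polish, which gives those 2 full weight, the Id1 difference was -0.71 (adjusted p = 6.81e-05). One of those 2 was kept only through its level in control cells, so this value and its p-value are not support for a fall. With the stricter limit on dim probe sets the Id1 difference was -0.024 (adjusted p = 0.641). Without control replicate 3 it was -0.029.

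Numbered by mean level, Id1 probe sets 1 to 4 differed by 0.04, 0.06, -0.07 and 0.02 with overlapping groups. Probe set 5 read 8.13, 8.83 and 9.06 on Smo shRNA arrays, against 9.95, 10.43 and 10.85 on control arrays, a difference of -1.73 (SE 0.24, limma adjusted p = 0.000693). Probe set 6 read 5.22, 5.98 and 7.81 on Smo shRNA arrays, against 8.41, 9.01 and 9.30 on control arrays, a difference of -2.57 (SE 0.49, adjusted p = 0.0070). Its mean in Smo shRNA cells, 6.34, was below the median of all probe sets (6.61), and it was kept only through its level in control cells (8.91), so the size of its difference is uncertain. The groups did not overlap in either probe set. In both lines replicate 1 was lowest and replicate 3 highest in these 2 probe sets, so their spread within a line was wide, up to 1.33 (SD, n = 3) for probe set 6 in Smo shRNA cells. Both calls held with each array left out, at -1.96 to -1.46 and -3.31 to -2.01, and both were lost without the variance trend (adjusted p = 0.0586 and 0.136). The annotation names Id1 alone for all 6, and where they lie in the gene was not analysed here.

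**Figure D3:**
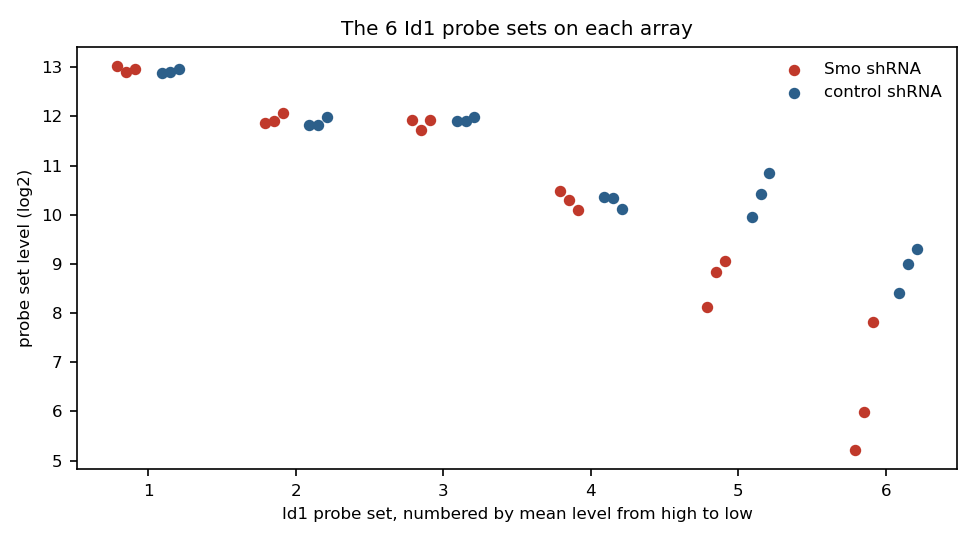
Level (log2) of the 6 Id1 probe sets, ordered by mean level, on the 3 Smo shRNA arrays (red, left) and the 3 control shRNA arrays (blue, right), with replicates 1 to 3 from left to right. The groups overlap in probe sets 1 to 4 and are separate in probe sets 5 and 6, where the differences are -1.73 and -2.57.

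Over the 10 genes together, 14 of 100 probe sets passed as lower and 0 as higher (limma, adjusted over 1236087 probe sets), against 6.72% as lower and 16.1% in either direction of all probe sets with a single symbol. Probe sets of a gene read the same transcripts and are not independent. The 14 belonged to Bmpr1a (5), Bmp4 (4), Id3 (3) and Id1 (2). With only the probe sets at or above the median of all of them tested, 20 of 90 passed as lower and 1 as higher, against 10.2% as lower and 14.5% as higher of all such probe sets with a single symbol. A total of 90 of the 100 probe sets were at or above that median, and every one of the 10 genes kept at least 4. The calls of single probe sets depended on the variance trend, without which 1 of the 100 passed as lower.

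**Figure D4:**
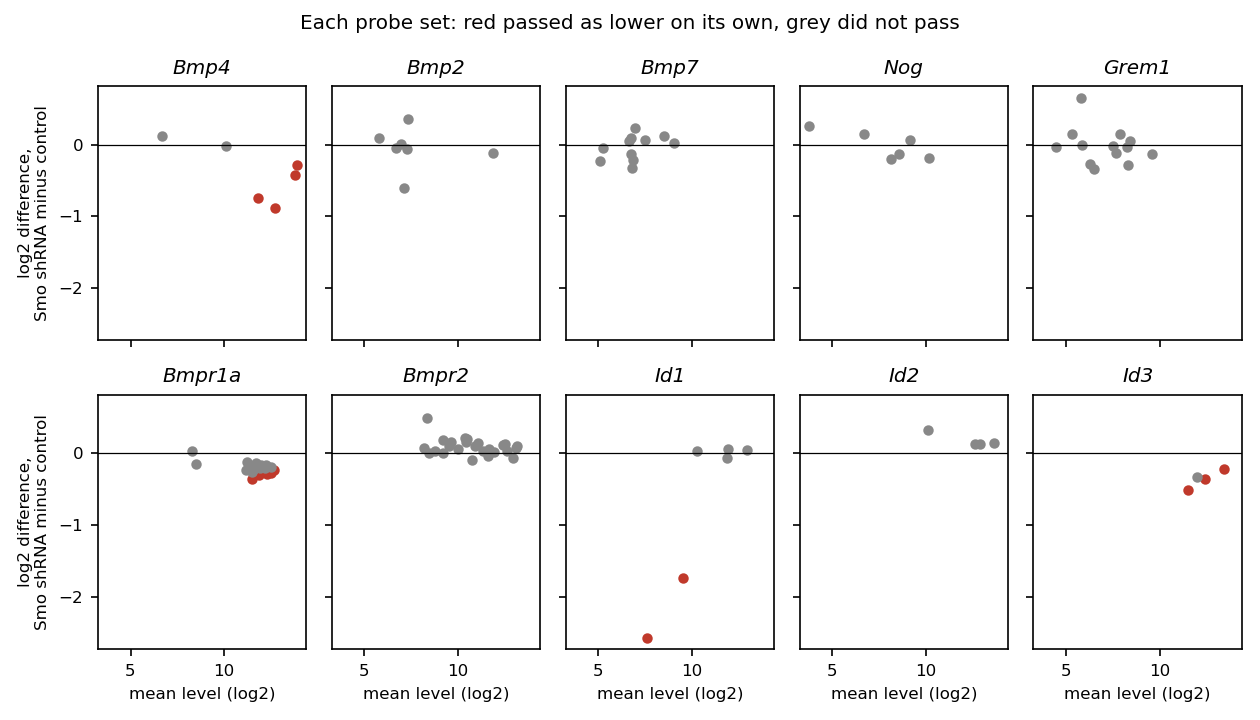
Each probe set of the 10 genes by its mean level over 6 arrays (log2, horizontal) and its log2 difference, Smo shRNA minus control shRNA (vertical). Red marks the 14 that passed as lower on their own, and the 2 lowest points are Id1 probe sets at -1.73 and -2.57.

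Outside the 10 genes, the other extracellular modulators of BMP signalling, not all of which bind BMPs, included falls larger than those of the 10 gene levels. Of 16 tested modulators 6 fell and 0 rose, with a median difference of -0.09. Over all tested genes 17.4% fell and 21.4% rose, the shares to set beside this list and those below. The lists were chosen with earlier results of these data known. Chrdl1, a chordin-like antagonist, was at 7.09 ± 0.01 in Smo shRNA cells and 8.57 ± 0.24 in control cells (SD, n = 3 each), 2.79-fold lower (-1.48, SE 0.10, limma adjusted p = 7.44e-08). Its level in Smo shRNA cells was not far above 6.61, the median probe set level, and keeping every dim probe set gave a difference of -0.89, whereas a stricter limit gave -2.38. Fst, which encodes the activin and BMP binding protein follistatin, was 1.83-fold lower (-0.87, SE 0.06), and Bmper, which binds BMPs through chordin-type repeats, was 1.82-fold lower (-0.86, SE 0.07). Crim1, a membrane protein with such repeats, was 1.73-fold lower (-0.79, SE 0.04), the adjusted p being at most 5.15e-07 for these 3 genes. The other 2 that fell, named after their values were seen, were Fstl1 (-0.08, adjusted p = 0.00664) and Twsg1 (-0.12, adjusted p = 0.0169). The Twsg1 call was lost without Smo shRNA replicate 2 (-0.11) or 3 (-0.10), without control replicate 1 (-0.081) or 3 (-0.087), and with the mean of probe sets (-0.12). Without the variance trend both calls were lost and 4 genes fell, and with the stricter limit on dim probe sets 1 gene, Dand5, rose (0.20, adjusted p = 0.0329). Fstl3 (0.10, adjusted p = 0.112) and Nbl1 (-0.16, adjusted p = 0.130) did not pass. With array weights Nbl1 passed as lower (-0.17, adjusted p = 0.0228). With no filter on dim probe sets Tll1, named after its values were seen, passed as lower (-0.21, adjusted p = 0.0461). The intervals of the antagonists Nog and Grem1 included 0.

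Among 11 other tested BMP and GDF ligands 1 fell and 0 rose. Gdf5, a ligand of joint and cartilage formation, read 7.76 ± 0.07 in Smo shRNA cells and 8.04 ± 0.06 in control cells (SD, n = 3 each), a difference of -0.28 (limma adjusted p = 0.00689). The Gdf5 call was lost when Smo shRNA replicate 2 (-0.20) or replicate 3 (-0.19) was left out, and when dim probe sets were kept (-0.15). Gdf11 (0.11, adjusted p = 0.131) and Bmp3 (-0.14, adjusted p = 0.145) did not pass. Without the variance trend Bmp3 passed as lower (limma adjusted p = 0.0349).

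Among 10 other receptors and co-receptors 3 fell and 2 rose, none by more than 0.30. Bambi, a pseudoreceptor that lacks a kinase, fell by 0.30 (limma adjusted p = 0.00457), Rgma, a BMP co-receptor, by 0.23 (adjusted p = 0.00643) and Acvr1, a type I receptor, by 0.14 (adjusted p = 0.0144). Rgmb, another co-receptor, rose by 0.27 (adjusted p = 0.000577), and the type II receptor Acvr2a by 0.21 (adjusted p = 0.0247), a gene named after its values were seen. Acvrl1 (-0.11, adjusted p = 0.279) and Eng (-0.07, adjusted p = 0.466) did not pass. Only the Rgmb call was kept in all 6 fits that left out an array. The Bambi call was lost without control replicate 1 (-0.21) or 2 (-0.31), and that of Rgma without Smo shRNA replicate 1 (-0.21) or 2 (-0.25) or control replicate 1 (-0.20). The Acvr1 call was lost without Smo shRNA replicate 1 (-0.095) or 2 (-0.12) or control replicate 1 (-0.12) or 3 (-0.10), and with the mean of probe sets (-0.12). That of Acvr2a was lost in each such fit (0.15 to 0.22) except without control replicate 3. In this list 0 fell without control replicate 1, 1 fell without Smo shRNA replicate 1 or 2, and 1 rose in every such fit but that without control replicate 3, where 2 did.

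Of 12 tested Smads and intracellular regulators 3 fell and 3 rose. The inhibitory Smad genes Smad7 and Smad6, which BMP signalling raises and which dampen it, fell by 0.38 (SE 0.05, limma adjusted p = 2.25e-05) and 0.30 (SE 0.05, adjusted p = 0.000129), Smad6 being named after its values were seen. Smad9, a BMP receptor-activated Smad, fell by 0.41 (SE 0.05, adjusted p = 1.42e-05). Smurf1, a ubiquitin ligase that marks BMP Smads for degradation, rose by 0.32 (SE 0.04, adjusted p = 1.73e-05), and Ppm1a, a phosphatase reported to act on Smads, rose by 0.34 (SE 0.04, adjusted p = 1.05e-05). Smad1 (0.15, adjusted p = 0.0675) and Ube2o (0.11, adjusted p = 0.124) did not pass. With array weights Ube2o passed as higher (0.13, adjusted p = 0.0152). Ski, named after its values were seen, passed as lower with array weights (-0.11, adjusted p = 0.0109) and without Smo shRNA replicate 3 (-0.13, adjusted p = 0.0234). The third riser, Skil, was named after its values were seen (0.21, adjusted p = 0.0174), and its call was lost without any 1 of the 6 arrays except control replicate 3 (0.13 to 0.20).

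Of 11 other genes known to respond to BMP, 7 fell and 1 rose, with a median difference of -0.30. Over all tested genes 17.4% fell and 21.4% rose, and this list was chosen with earlier results of these data known. Smad6 and Smad7 are in this list too. Atoh8, a transcription factor gene, was at 12.36 ± 0.04 in Smo shRNA cells and 12.77 ± 0.01 in control cells (SD, n = 3 each), a difference of -0.40 (SE 0.03, limma adjusted p = 8.01e-08). Runx2, the transcription factor gene that osteoblasts need, fell by 0.42 (SE 0.04, adjusted p = 2.43e-06). Hey1 and Dlx5, which also respond to other pathways, fell by 1.62 and 0.82 (adjusted p at most 4.46e-08 for both). For no gene of this list was the part of BMP signalling in its difference tested. Dlx3, a homeobox gene named after its values were seen, rose by 0.42 (SE 0.07, adjusted p = 0.00013). The seventh that fell, Sp7, was also named after its values were seen (-0.20, adjusted p = 0.0383). Its call was lost in 7 of 16 alternatives, which were every fit that left out an array (-0.22 to -0.11) except that without Smo shRNA replicate 1, the mean of probe sets (-0.17) and genes with at least 1 probe set (-0.20). Msx1 (0.13, adjusted p = 0.118) and Msx2 (-0.10, adjusted p = 0.687) did not pass. With array weights Msx1 passed as higher (0.15, adjusted p = 0.0139). The list held Id4 as well, which did not pass (0.03, adjusted p = 0.751).

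The E proteins, which Id proteins bind, were measured through Tcf3, Tcf4 and Tcf12. None of the 3 passed, with differences of 0.03, 0.01 and 0.08 and adjusted p of 0.648, 0.805 and 0.0517, while 1 of them had p below 0.05 before adjustment. Tcf12, the nearest to the threshold, passed without Smo shRNA replicate 3 (0.08, adjusted p = 0.0473) and under 5 other alternatives.

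**Figure D5:**
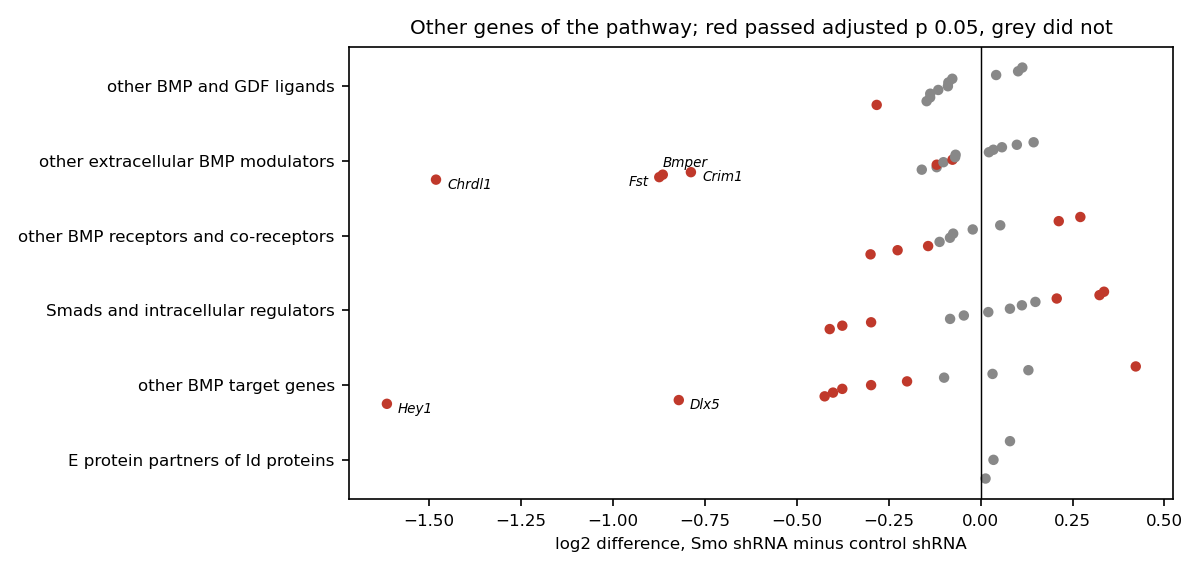
Log2 difference, Smo shRNA minus control shRNA, of each tested gene in 6 lists of the BMP pathway outside the 10 genes, 1 point a gene. Red marks genes that passed adjusted p 0.05, and names are given for those that fell by more than 0.7, the lowest being Hey1 at -1.62 and Chrdl1 at -1.48.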

How the data were processed

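Total RNA in 6 samples of OP9 cells was hybridized to Affymetrix Mouse Exon 1.0 ST arrays. The deposited log2 values of 1256831 probe sets were used as the authors made them. The log2 scale was read from the values, which reached 15.14, and for background correction, summary and normalization the methods were not given in the sources used here. Rows at 0 on every array (20744) were left out, none of them with a symbol of the 10 genes. Of all probe sets 318760 had 1 symbol in the platform annotation, 6684 several and 931387 none, and symbols were updated through RefSeq synonyms.

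Probe sets with a mean at or above the median (6.61) were kept, and genes with at least 3 of them were joined by Tukey median polish. Gene and probe set values were compared with limma 3.58.1 (R 4.3.3), with a variance trend, two-sided, Benjamini-Hochberg adjusted over all 16791 genes or 1236087 probe sets. SE is the moderated standard error. The calculation was tested on simulated data.

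The genes and lists were chosen with earlier results of these data known. All 10 genes are named, and of each pathway list up to 4 that passed and 2 that did not, by adjusted p, with others marked. Tcf4, Id4, Dand5 and the cell type markers named are outside this rule and are not marked. Members without 3 kept probe sets of a single symbol were not tested. Replicate numbers were not used to pair the arrays in the main fit. Alternatives covered filter, summary, normalization, variance model, array weights, a replicate block and each array left out with the same probe sets. The number of arrays limits the precision.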

Additional observations from a re-analysis of the deposited data

How the results depend on the processing

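The calls of Bmp4, Bmpr1a and Id3 as lower and Id2 as higher held in every alternative that tested them, with differences of -0.44 to -0.32, -0.24 to -0.18, -0.46 to -0.35 and 0.14 to 0.18. With at least 5 probe sets per gene Id2 and Id3 were not tested, which left 0 higher and 2 lower. Id1 passed as lower with the mean of probe sets (-0.71), quantile normalization (-0.12, adjusted p = 0.0454) and array weights (-0.11, adjusted p = 0.0275). The mean of probe sets gives full weight to an Id1 probe set kept only through its level in control cells. The Id1 difference ran from -0.13 to -0.029 when an array was left out, the smallest without control replicate 3. Of the probe sets of the 10 genes, 1 passed as higher with quantile normalization, with array weights and with kept probe sets only. Without a variance trend 1 passed as lower in place of 14, and neither Id1 probe set did (adjusted p = 0.0586 and 0.136). The cause was not tested. Robust eBayes was not run on probe sets.

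Some genes that did not pass changed sign. With an array left out, differences ran from -0.16 to 0.0062 for Bmp2, -0.13 to 0.082 for Bmp7, -0.062 to 0.049 for Grem1, -0.14 to 0.060 for Nog, -0.0015 to 0.067 for Tcf3, -0.096 to 0.0069 for Eng and -0.25 to 0.092 for Msx2. Grem1 was at 0.0043 with quantile normalization and 0.00058 with median centring, Nog at 0.024 and Tcf3 at -0.0038 with array weights, Tcf3 at -0.0074 with the mean of probe sets, and Msx2 at 0.063 with no filter on dim probe sets.

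Arrays with the same replicate number in both lines had correlations of 0.077, 0.10 and 0.39 between their deviations across genes. Each deviation was taken from the mean of the 3 arrays of its line, so these correlations constrain one another. Smo shRNA replicate 1 correlated more with control replicate 2 (0.31), and the other pairs of unlike number ran from -0.37 to -0.0018. Whether the lines shared a replicate effect was not tested. With the replicate block, 1 of the 10 genes was higher and 3 were lower, 16 of their probe sets were lower, and 3779 and 3128 of all genes were higher and lower, against 3586 and 2928 without it. Over all alternatives 2677 to 4077 genes were higher and 2070 to 3994 lower. Bmp2, Bmp7, Nog and Grem1 had the 4 lowest gene levels, although the brightest Bmp2 probe set had a mean of 11.88. Changes within their intervals remain compatible with the values, and the smallest detectable change was not computed. Dim probe sets understate changes, so these intervals do not bound the change of the transcripts. Bmp2 and Bmp7 were not tested with the stricter limit on dim probe sets.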
